A study of Mus musculus with 4 samples.

Results

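The 10 genes described here act in the integrated stress response or are switched on by its transcription factor ATF4. They are Atf4, Atf3, Ddit3, Trib3, Chac1, Asns, Sesn2, Ppp1r15a, Psat1 and Phgdh. All were chosen by name, and each was found once among the 49671 genes of both deposited tables. The samples were CD3+ T cells from spleens of F1 females, the offspring of castaneus fathers and C57BL/6 mothers heterozygous for an Xist deletion. All 4 libraries form 1 group, labelled as biological replicates. After column enrichment the cells spent 48 hours in culture, stimulated by anti-CD3 (1 µg/ml, bound to the plate) together with anti-CD28 (10 µg/ml, soluble), with 2.5 µM IMD-0354, a small molecule that blocks the IκB kinase IKKβ. The medium was supplemented with nonessential amino acids and pyruvate, per the labels. No untreated or inhibitor-free sample was analysed here, so levels are described for 1 condition. The comparison that the data allow is between the maternal C57BL/6 and the paternal Castaneus allele of each gene. With 1 direction of the cross, strain and parent of origin cannot be told apart.

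The integrated stress response starts from kinases that phosphorylate the translation initiation factor eIF2 when amino acids run short, proteins misfold in the endoplasmic reticulum, or mitochondria are disturbed. Phosphorylated eIF2 lowers protein synthesis in general but favours translation of the Atf4 mRNA, so that the amount of ATF4 protein is set largely after transcription. ATF4 then pairs with C/EBP and other leucine zipper proteins and raises genes for amino acid synthesis and uptake and for redox control, as well as genes that feed back on the response. In activated T cells the same genes supply building blocks for growth.

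Allelic reads numbered 30539711 to 34992012 per library, and log2(RPKM + 0.1) correlated between libraries with r of 0.940 to 0.974 across 11453 genes of at least 1 RPKM (reads scaled to gene length and sequencing depth). Of all autosomal allelic reads, 49.6% ± 0.0870 came from Castaneus (SD, n = 4). Reads need not be independent molecules. Among autosomal genes with 20 to 39 reads, the share read from a single allele ran from 13.5% in replicate 4 to 84.2% in replicate 2. All 8 T cell markers exceeded 1 RPKM on average, and their summed level ran from 250.5 to 276.04 RPKM. Of the other cell types, the 5 B cell markers summed to 4.61 to 10.5 RPKM, and the 4 myeloid markers that had a single row to 20.5 to 81.5 RPKM, most of it the lysozyme gene Lyz2. The 4 NK cell markers summed to 3.59 to 4.75 RPKM, most of it Eomes, which T cells can also express, while Ncr1 stood at 0.0895 ± 0.0993 RPKM (SD, n = 4). The 4 erythroid markers summed to 1.10 to 6.12 RPKM.

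ATF4 with a C/EBP partner is known to bind a composite element whose core reads TGATGNAA, or TTNCATCA on the other strand. In the 250 bases before the RefSeq start (GRCm38.p6), 3 of the 10 genes held an exact match, against 3.91% of all 27025 genes in that promoter table. The 3 stretches of 30 bases around the matches are given to show this element, 5′ to 3′ on the gene's strand with the match in capitals.
Atf3: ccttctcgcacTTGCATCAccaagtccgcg
Chac1: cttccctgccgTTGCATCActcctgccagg
Asns: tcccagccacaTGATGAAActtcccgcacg
The Atf3 match began 110 bases before the start (chr1:191183436-191183443, minus strand), the Chac1 match 193 bases before it (chr2:119351049-119351056, plus strand) and the Asns match 23 bases before it (chr6:7693225-7693232, minus strand). The Asns and Atf3 matches lie inside the genes as GENCODE M21 draws them, since those models start further upstream. Trib3 had a match 15 bases after its start (chr2:152344039-152344046), outside the searched stretch. Among 19 of the other ATF4 targets examined below that are in the table, 8 held a match, among them Slc7a11, Aars, Nupr1 and Herpud1, and none of the genes matched from the remaining lists did. A match describes these letters only, and the absence of one says nothing about binding.

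The Atf4 mRNA was the most abundant of the 10. Atf4 (ENSMUSG00000042406, chr15:80255184-80257541, mm10), the transcription factor at the centre of the response, stood at 282, 279, 299 and 271 RPKM in replicates 1 to 4, a mean of 282.8 ± 12.01 (SD, n = 4). The 4 libraries lay close together, and the mean ranked 87 among the 11453 genes of at least 1 RPKM, 42.1 times their median of 6.72 RPKM. Ddit3 (ENSMUSG00000025408, chr10:127290774-127296288), which encodes CHOP, a leucine zipper factor that promotes cell death under lasting stress, had 31.7, 40.2, 36.0 and 42.4 RPKM. Atf3 (ENSMUSG00000026628, chr1:191170296-191218039), a stress-induced factor that mostly represses transcription, had 14.5, 15.4, 15.2 and 14.1 RPKM, among the lowest of the 10 and nearly equal in all 4 libraries.

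Among Trib3, Ppp1r15a, Sesn2 and Chac1, Trib3 was highest. Trib3 (ENSMUSG00000032715, chr2:152337422-152344032), a pseudokinase that binds and restrains ATF4 and CHOP, had 84.3, 77.5, 76.1 and 74.2 RPKM. Ppp1r15a (ENSMUSG00000040435, chr7:45522916-45526268), the inducible subunit of the phosphatase that removes phosphate from eIF2, had 40.5, 48.5, 48.9 and 53.5 RPKM, lowest in replicate 1. Sesn2 (ENSMUSG00000028893, chr4:132492032-132510501), a leucine sensor that restrains mTORC1, had 37.2, 39.7, 35.8 and 35.7 RPKM, with little spread. Chac1 (ENSMUSG00000027313, chr2:119351229-119354381), which encodes an enzyme that breaks down glutathione, had 22.6, 22.9, 16.5 and 15.1 RPKM. The values of Chac1 in replicates 1 and 2 lay above those in replicates 3 and 4.

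The 3 enzymes of amino acid synthesis lay between 10.2 and 44.0 RPKM. Asns (ENSMUSG00000029752, chr6:7675169-7693254), which makes asparagine from aspartate, had 40.2, 37.3, 37.6 and 34.9 RPKM. Phgdh (ENSMUSG00000053398, chr3:98313170-98339990), the enzyme of the first step of serine synthesis, had 44.0, 33.5, 29.2 and 31.5 RPKM. Psat1 (ENSMUSG00000024640, chr19:15904678-15947337), the aminotransferase of the next step, had 16.5, 14.3, 10.3 and 10.2 RPKM, the lowest mean of the 10 at 12.8 ± 3.12 RPKM (SD, n = 4). Both serine enzymes were highest in replicate 1.

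**Figure D1:**
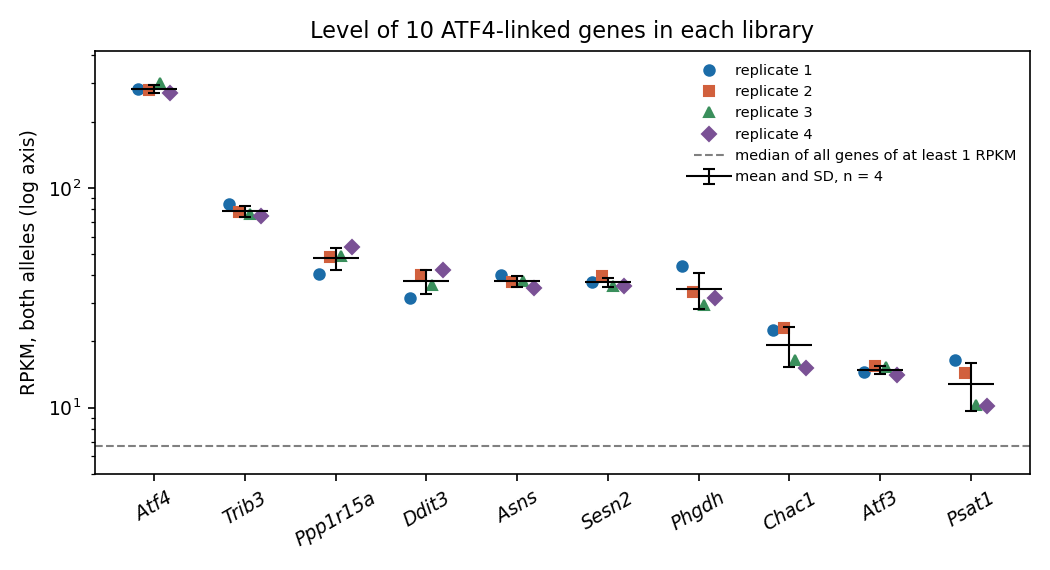
Each point is the RPKM of both alleles together in 1 library, on a log axis, for the 10 genes ordered by mean, with the mean and SD of 4 libraries as bars and the median of all genes of at least 1 RPKM (6.72) as a dashed line. All points lie above that median, and Atf4 stands above every other gene.

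In order of mean level, Atf4 exceeded Trib3 by 3.62 times and Trib3 exceeded Ppp1r15a by 1.63 times, in 4 of 4 libraries each and with no overlap of their ranges. Ppp1r15a, Ddit3, Asns, Sesn2 and Phgdh followed with overlapping ranges between neighbours, and Ddit3 and Asns, whose means differ by a ratio of 1.00, kept their order in only 2 of 4 libraries. Ppp1r15a was above Ddit3 in 4 of 4 libraries by a ratio of 1.27. Phgdh exceeded Chac1 by 1.79 times without overlap. Chac1, Atf3 and Psat1 came last, their neighbouring ranges overlapping. This order is a description, with no test. The 10 genes had a median of 37.3 RPKM, and their means lay above 70.4% (Psat1) to 99.2% (Atf4) of all genes of at least 1 RPKM. By level alone, the named genes nearest to Atf4 over the 4 libraries were Pabpc1, a poly(A)-binding protein gene, Tmsb4x, an actin-binding peptide gene, and Rpl35, a ribosomal protein gene, which differed from it by a root mean square of 0.0507, 0.0739 and 0.124 on the log2(RPKM + 0.1) scale.

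The 10 genes differed in how much they varied between libraries. Atf3 and Atf4 had coefficients of variation of 4.19% and 4.25%, and Sesn2, Trib3 and Asns had 5.08%, 5.65% and 5.86%. Ppp1r15a and Ddit3 reached 11.3% and 12.6%. Phgdh, Chac1 and Psat1 varied most, with 18.9%, 20.9% and 24.4%, higher than in 75.8%, 79.4% and 83.9% of all genes of at least 1 RPKM. The median of the 10 was 8.58%, beside 11.4% over all those genes. The genes compared were not matched for level, at a median of 37.3 RPKM for the 10 and 6.72 RPKM for all.

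These differences did not all run the same way. Replicate 4 was the lowest library for 7 of the 10 genes, against 16.1% of all genes of at least 1 RPKM, and replicate 1 was the highest for 4, against 19.7%. Ddit3 and Ppp1r15a went the other way, lowest in replicate 1 and highest in replicate 4. The serine and one-carbon genes outside the 10 were highest in replicate 1 with 1 exception, namely Shmt1, which peaked in replicate 2. The summed myeloid markers stood at 50.6, 81.5, 30.1 and 20.5 RPKM and the summed B cell markers at 10.5, 6.92, 4.61 and 5.16 RPKM in replicates 1 to 4, so both were also higher in replicates 1 and 2, as were Chac1 and Psat1. Their part in the levels of the 10 genes was not tested. In whole-culture RNA, fewer cells that express a gene and less RNA per cell cannot be told apart.

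**Figure D2:**
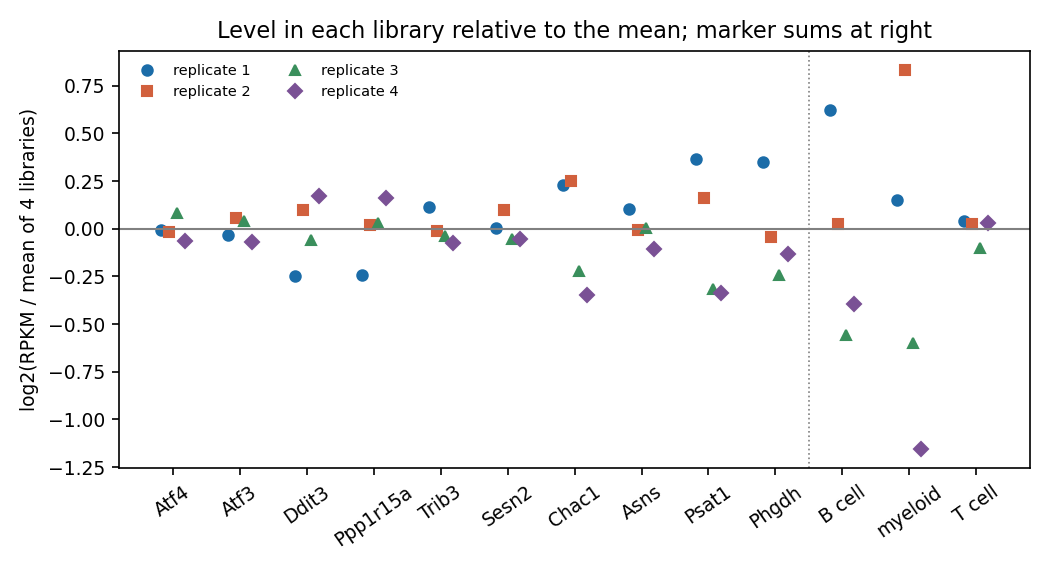
Each point is the log2 ratio of 1 library's RPKM to the mean of 4 libraries, for the 10 genes and, right of the dotted line, for the summed markers of B cells, myeloid cells and T cells. Chac1 and Psat1 lie above 0 in replicates 1 and 2 and below it in replicates 3 and 4, as the summed myeloid markers do, while Ddit3 and Ppp1r15a are lowest in replicate 1.

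The clearest differences between alleles were in Asns and Sesn2, which were read mostly from the paternal Castaneus allele, and in Atf3, read mostly from the maternal C57BL/6 allele. All 10 genes had enough reads to be tested, and 5 passed, 4 on the Castaneus side and 1 on the C57BL/6 side (edgeR's quasi-likelihood test, FDR of 5%). Over all 10268 autosomal genes tested 28.1% passed, 12.4% toward Castaneus and 15.6% toward C57BL/6, so an allelic difference was common. The median absolute log2 ratio was 0.24 in the 10 genes and 0.26 over all autosomal genes tested. The shares that passed were not matched for read depth, which had a median of 1281 reads per library over tested genes. The interval given with each share below is the range of the exact Clopper-Pearson 95% intervals of the 4 libraries, which cover counting error only and are too narrow where several reads come from 1 molecule.

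Asns had 80.8%, 84.4%, 85.1% and 85.6% of its allelic reads from Castaneus in replicates 1 to 4, with intervals from 79.9% to 86.4%. Its mean share of 84.0% ± 2.15 (SD, n = 4) rested on a mean of 7115 reads per library, and only 202 of the 10268 tested genes had a higher one. The fitted Castaneus level was 5.36 times that of C57BL/6 (log2 ratio 2.42, SE 0.09, adjusted p = 6.69e-09, higher in 4 of 4 libraries). If the reads that carry variants stand for the whole gene, the Castaneus allele supplied 31.5 ± 1.17 RPKM of Asns and the C57BL/6 allele 6.04 ± 1.16 RPKM (SD, n = 4). The C57BL/6 part stood at 7.71, 5.82, 5.58 and 5.04 RPKM in replicates 1 to 4, highest in replicate 1. Its coefficient of variation of 19.2% dropped to 7.29% when replicate 1 was left out, and that of the Castaneus part, 3.71%, to 1.62% when replicate 4 was (an alternative chosen after seeing the data). The element printed above for Asns is the reference letters, and the Castaneus letters were not analysed here.

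Sesn2 had 78.3%, 77.9%, 79.6% and 80.3% of its reads from Castaneus, with intervals from 77.1% to 81.1%. All 4 libraries lay within a few percentage points of the mean of 79.0% ± 1.09 (SD, n = 4), a spread smaller than in all but 5.76% of tested genes. That rank was not matched for depth, as Sesn2 had a mean of 9562 reads per library, beside a median of 1281 over tested genes. The Castaneus level was 3.83 times that of C57BL/6 (log2 ratio 1.94, SE 0.06, adjusted p = 1.94e-09, higher in 4 of 4 libraries). Gm12981, a noncoding gene annotated inside Sesn2 on the same strand (chr4:132503561-132509649), had 79.0% ± 6.04 from Castaneus at 12.7 RPKM. The sources used here do not say how reads of the stretch they share were divided.

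Atf3 had 32.8%, 32.7%, 31.4% and 30.2% of its reads from Castaneus, with intervals from 28.4% to 34.6%. Every library thus gave more C57BL/6 reads, at a mean Castaneus share of 31.8% ± 1.24 (SD, n = 4) over a mean of 2740 reads per library. The C57BL/6 level was 2.11 times that of Castaneus (log2 ratio -1.08, SE 0.09, adjusted p = 5.60e-06). The calls of Asns, Sesn2 and Atf3 held under all 9 alternatives tried, with adjusted p of at most 1.04e-06, 2.90e-06 and 0.000345.

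Chac1 and Trib3 leaned toward Castaneus to a smaller degree. Chac1 had 51.6%, 61.4%, 58.7% and 56.3% from Castaneus, with intervals from 49.8% to 63.2%, all above the autosomal share and widely spread. The SD of its shares was 4.14 percentage points (n = 4; log2 ratio 0.43, SE 0.11, adjusted p = 0.0135). Trib3 had 54.3%, 59.0%, 53.1% and 53.8%, with intervals from 52.3% to 59.9% and a mean of 55.1% ± 2.68 (SD, n = 4; log2 ratio 0.32, SE 0.06, adjusted p = 0.00300), highest in replicate 2. Without the pairing of alleles by replicate block both calls were lost (adjusted p = 0.155 for Chac1 and 0.0505 for Trib3). Chac1 also missed the threshold when replicate 3 or replicate 4 was left out (adjusted p = 0.0590 and 0.0542), over a range of 0.000102 to 0.155 in 9 alternatives, beside 1.74e-08 to 0.0505 for Trib3.

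The other 5 genes did not pass. Atf4 itself had 47.1%, 50.1%, 48.1% and 48.5% of its reads from Castaneus, with intervals from 46.4% to 50.8%, over a mean of 19355 reads per library. Its log2 ratio of -0.07 had an SE of 0.04 (adjusted p = 0.296). Ddit3 had 49.5%, 49.9%, 54.3% and 43.9%, with intervals from 40.9% to 57.5%, the widest of the 10, over a mean of 918 reads per library. Its log2 ratio was -0.01 with an SE of 0.16 (adjusted p = 0.967), and its sign turned with TMM factors, with DESeq2 and without replicate 4. Ddit3 shares 68 bases with Mars on the opposite strand, and the sources used here do not say whether counting used strand.

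Ppp1r15a had a mean Castaneus share of 51.4% ± 2.54, ranging from 49.2% to 55.04% (log2 ratio 0.10, SE 0.06, adjusted p = 0.259), with intervals from 48.2% to 56.1%. Phgdh had 49.1% ± 2.92, ranging from 47.0% to 53.4% (log2 ratio -0.03, SE 0.07, adjusted p = 0.831), with intervals from 45.9% to 54.8%, and its sign turned with TMM factors, with DESeq2 and without replicate 1 or 3. Psat1 had 52.5% ± 3.22, with 49.4%, 50.03%, 55.8% and 54.7% in replicates 1 to 4 (SD, n = 4; log2 ratio 0.17, SE 0.08, adjusted p = 0.170) and intervals from 48.2% to 57.3%. Psat1 thus lay nearer to equal alleles in the 2 libraries in which its level was highest. DESeq2's Wald test, which called 37.1% of all autosomal genes tested (18.8% toward Castaneus and 18.3% toward C57BL/6), called Ppp1r15a (adjusted p = 0.0404) and Psat1 (adjusted p = 0.0345) toward Castaneus. Over 9 alternatives the adjusted p ran from 0.0404 to 0.715 for Ppp1r15a and from 0.0345 to 0.734 for Psat1.

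**Figure D3:**
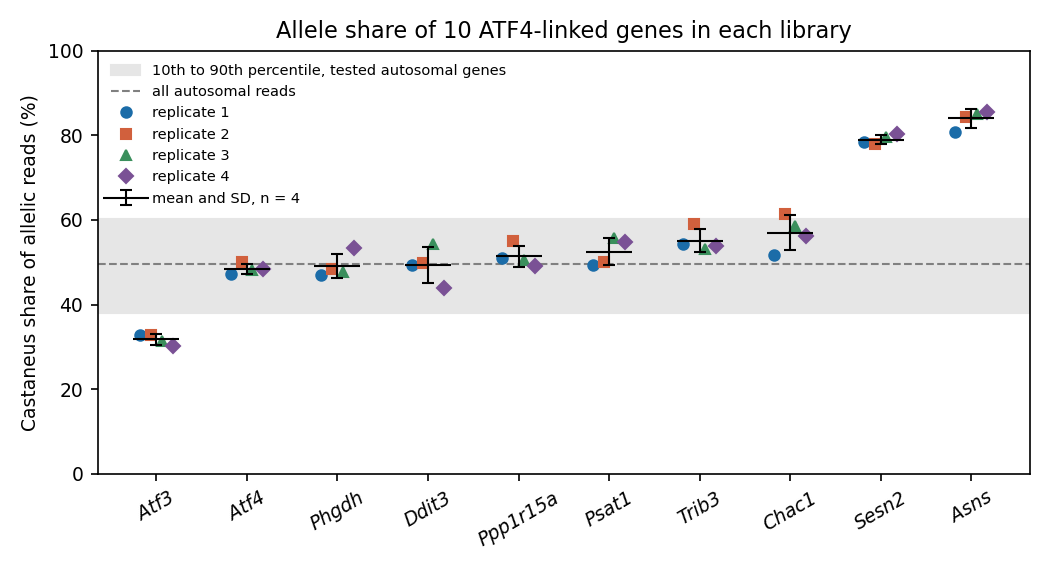
Each point is the Castaneus share of allelic reads in 1 library, with the mean and SD of 4 libraries, the share of all autosomal reads as a dashed line at 49.6%, and the 10th to 90th percentile of tested autosomal genes as a grey band (38.0% to 60.3%). Asns and Sesn2 lie above the band and Atf3 below it in all 4 libraries.

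Genes around Asns and Sesn2 were mostly read near evenly from both alleles. Distances here are between starts as GENCODE M21 draws them, not the RefSeq starts used for the promoters. Within 1 Mb of the Asns start, 5 other genes were tested, with Castaneus shares from 41.5% to 56.1%, and 1 of them passed, C1galt1, which encodes a glycosyltransferase (56.1% ± 1.91, adjusted p = 0.00272). Around Sesn2, 31 genes were tested with a median share of 49.4%. Of these 5 passed toward Castaneus, including the overlapping Gm12981, and 3 toward C57BL/6, among them Dnajc8 at 37.3% ± 4.71, whose start lies 25.05 kb away. Around Atf3, 13 genes were tested with a median share of 47.7%, and 1 passed toward Castaneus, Nenf at 72.5% ± 12.7, and 3 toward C57BL/6. Tatdn3, 155 kb from the Atf3 start, had a share of 31.0% ± 8.92 (SD, n = 4; adjusted p = 0.0298), close to that of Atf3.

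**Figure D4:**
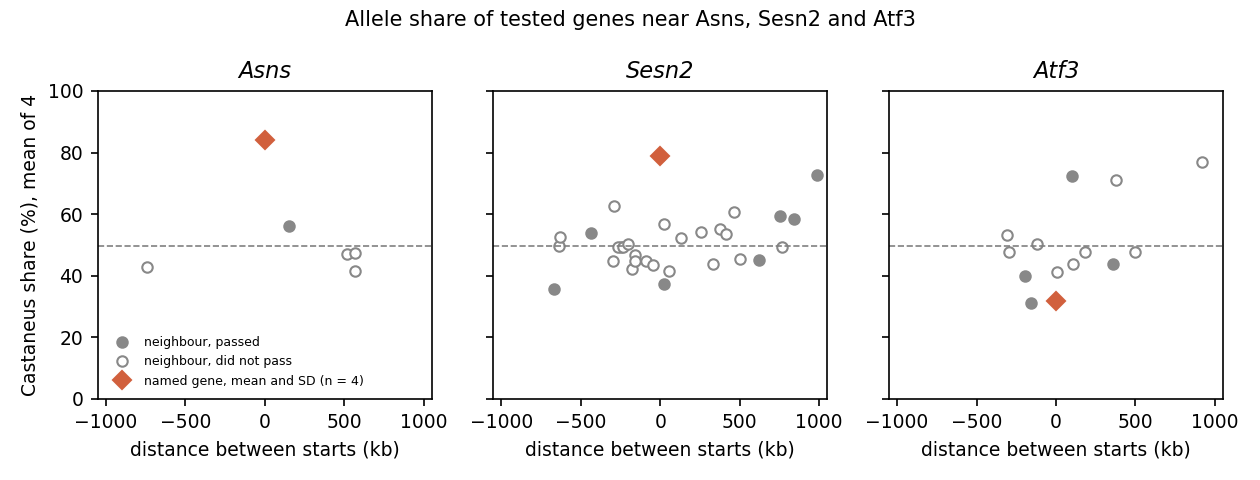
Each circle is the mean Castaneus share over 4 libraries of a tested gene within 1 Mb of Asns, Sesn2 or Atf3 (diamonds, mean and SD). The horizontal axis is the distance between GENCODE M21 starts, and the dashed line marks the share of all autosomal reads. The 5 neighbours of Asns lie at 56.1% or below, and Gm12981 is hidden behind the Sesn2 diamond.

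The rest of the pathway was examined in 6 lists of 61 genes, of which 56 could be tested. Of these 11 passed toward Castaneus and 11 toward C57BL/6, beside 12.4% and 15.6% of all autosomal genes. The median log2 ratio was -0.09 against -0.04 over all genes tested, and the median absolute log2 ratio 0.20 against 0.26. The genes compared were not matched for read depth, which affects how easily a gene passes. Without the replicate block 3 and 6 of the 56 passed, while the shares over all autosomal genes fell to 9.37% and 11.1%. Leaving out replicate 1 gave 7 and 8 of 55 (8.89% and 10.8% of all genes). Leaving out replicate 3 gave 8 and 7 of 55 (9.66% and 11.8%), and leaving out replicate 4 gave 7 and 6 of 55 (8.94% and 10.1%). Without replicate 2 the counts were 10 and 11 of 57 (13.1% and 16.9%). TMM factors gave 11 and 7, beside 14.4% and 13.2% of all genes, and DESeq2 gave 12 and 11, beside 18.8% and 18.3%. Without the RPKM minimum 10 and 11 of 59 passed (10.4% and 12.5% of all genes). With a minimum of 100 allelic reads 11 and 11 of 55 did (13.1% and 16.8%). Of the 22 calls 9 held under every alternative that tested the gene. The other 13 were all lost without the replicate block, some of them under other alternatives too. That fit ignores the pairing of the alleles within a library.

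Upstream of ATF4, 3 of the 4 eIF2 kinase genes lay near or above the median gene and 1 far below it. Eif2ak3, which encodes the endoplasmic reticulum kinase PERK, had 13.6 ± 0.626 RPKM, Eif2ak1, the heme-regulated kinase that also relays mitochondrial stress, 8.33 ± 0.604, Eif2ak4, the amino acid sensor GCN2, 6.27 ± 1.17, and Eif2ak2, the double-stranded RNA sensor PKR, 0.485 ± 0.141 (SD, n = 4). None of the 3 that could be tested passed in edgeR. Eif2ak4 had 53.1% ± 2.83 of its reads from Castaneus (log2 ratio 0.21, unadjusted p = 0.0442, adjusted p = 0.120). DESeq2, which called 37.1% of all autosomal genes tested, called Eif2ak4 toward Castaneus (adjusted p = 0.0145).

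Among genes of eIF2, its exchange factor eIF2B and the constitutive phosphatase subunit, 1 of 8 passed. Ppp1r15b, the constitutive partner of Ppp1r15a, had 40.6 ± 1.42 RPKM and 53.0% ± 1.01 of its reads from Castaneus (log2 ratio 0.20, adjusted p = 0.0106), a call lost without the replicate block (adjusted p = 0.123) and without replicate 1 (adjusted p = 0.0610). Eif2s2, the beta subunit of eIF2, was next in level with 25.03 ± 1.95 RPKM. Eif2b3 was the lowest with 2.18 ± 0.133 RPKM, and Eif2b1 had 5.50 ± 0.410 RPKM (SD, n = 4).

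The serine and one-carbon enzymes ranged from 1.11 RPKM for Aldh1l2 and 1.53 for Shmt1 to 60.3 for Mthfd2 and 70.3 for Shmt2, the mitochondrial enzyme that splits serine to charge folate. Of 8 genes 2 passed toward Castaneus and 1 toward C57BL/6. Mthfd1, a cytosolic folate enzyme, had 57.6% ± 3.15 from Castaneus (log2 ratio 0.46, adjusted p = 0.00711) and Psph, the last enzyme of serine synthesis, 58.5% ± 5.22 (log2 ratio 0.52, adjusted p = 0.0286). Shmt2 had 46.5% ± 1.12 (log2 ratio -0.18, adjusted p = 0.0292). Without the replicate block these adjusted p were 0.0518, 0.101 and 0.399. Psph also missed the threshold without replicates 1, 3 or 4, and Shmt2 without any 1 replicate and with TMM factors (adjusted p = 0.103).

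Of 24 other ATF4 targets 20 could be tested, and 4 passed toward Castaneus and 6 toward C57BL/6. Aldh18a1, which starts proline synthesis from glutamate, had 37.4% ± 2.88 of its reads from Castaneus (log2 ratio -0.72, adjusted p = 2.90e-05), and Cebpg, a dimer partner of ATF4, 44.6% ± 1.75 (log2 ratio -0.29, adjusted p = 0.00272). Slc7a5, the light chain of the leucine transporter, had 55.1% ± 1.29 (log2 ratio 0.32, adjusted p = 0.000270). Its partner chain Slc3a2 had 47.2% ± 0.787 (log2 ratio -0.14, adjusted p = 0.00348). The calls of Aldh18a1, Cebpg and Slc7a5 held under all 9 alternatives, and that of Slc3a2 was lost without the replicate block (adjusted p = 0.233). Nupr1 had a larger ratio toward C57BL/6 (log2 ratio -1.87, adjusted p = 0.00529). Its call held under the 7 alternatives that tested it.

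Aars, the alanyl-tRNA synthetase gene, had 53.0% ± 0.825 from Castaneus (adjusted p = 0.00258) and Slc7a11, the cystine transporter gene, 54.5% ± 0.948 (adjusted p = 0.00536), and both calls were lost without the replicate block (adjusted p = 0.0652 and 0.572). Slc3a2 and Slc38a2, a glutamine transporter gene, were the highest of the list at 170.4 ± 5.14 and 156.9 ± 19.4 RPKM. Fgf21, a hormone gene induced by mitochondrial stress in other tissues, was listed at 0 in all 4 libraries, and Vldlr had 0.0337 ± 0.0171 RPKM (SD, n = 4). Slc7a11 varied between libraries by a coefficient of variation of 48.9%, with its highest level in replicate 2 and its lowest in replicate 4, as the summed myeloid markers had.

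The mitochondrial stress list held abundant genes, with a median of 73.8 RPKM. Hspa9, the mitochondrial HSP70, had 169.4 ± 3.45 RPKM, Lonp1, a matrix protease, 108.7 ± 6.06, and Atf5, a factor related to ATF4, 102.1 ± 4.60, while Oma1, the inner membrane protease that starts the signal to the eIF2 kinases, had 6.24 ± 0.606 and Dnaja3, a matrix co-chaperone, 13.8 ± 0.625 (SD, n = 4). Of 9 genes 3 passed toward Castaneus and 1 toward C57BL/6. Lonp1 had 56.9% ± 1.65 of its reads from Castaneus (log2 ratio 0.42, adjusted p = 4.61e-05) and Atf5 55.0% ± 1.82 (log2 ratio 0.31, adjusted p = 0.00272), and both calls held under all 9 alternatives. Hspd1, the mitochondrial chaperonin gene, had 54.9% ± 0.979 (adjusted p = 0.0209) and Yme1l1, an inner membrane protease gene, 45.4% ± 2.97 (adjusted p = 0.0349). These last calls were lost without the replicate block (adjusted p = 0.134 and 0.104), and also without replicates 1 or 4 for Hspd1, without replicates 2, 3 or 4 for Yme1l1, and with TMM factors for Yme1l1 (adjusted p = 0.0833).

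The remaining arms of the endoplasmic reticulum response were led by Hspa5, the chaperone BiP, at 142.1 ± 5.77 RPKM and Hsp90b1, the chaperone GRP94, at 90.7 ± 5.16, with Atf6, a membrane-bound factor, lowest at 5.81 ± 0.504 and Sdf2l1 at 10.2 ± 2.35 (SD, n = 4). Of 8 genes 3 passed toward C57BL/6 and 1 toward Castaneus. Xbp1, the factor whose mRNA the sensor IRE1 splices, had 41.0% ± 2.23 from Castaneus (log2 ratio -0.50, adjusted p = 0.000629), Dnajb9, a co-chaperone, 38.5% ± 3.35 (log2 ratio -0.65, adjusted p = 0.00189) and Edem1, which helps clear misfolded proteins, 45.2% ± 1.38 (log2 ratio -0.25, adjusted p = 0.00513). These calls held under all 9 alternatives. Ern1, which encodes IRE1, had 53.2% ± 1.70 (log2 ratio 0.21, adjusted p = 0.0465), a call lost without the replicate block (adjusted p = 0.193), without the RPKM minimum (adjusted p = 0.0558) and without replicates 1, 3 or 4.

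**Figure D5:**
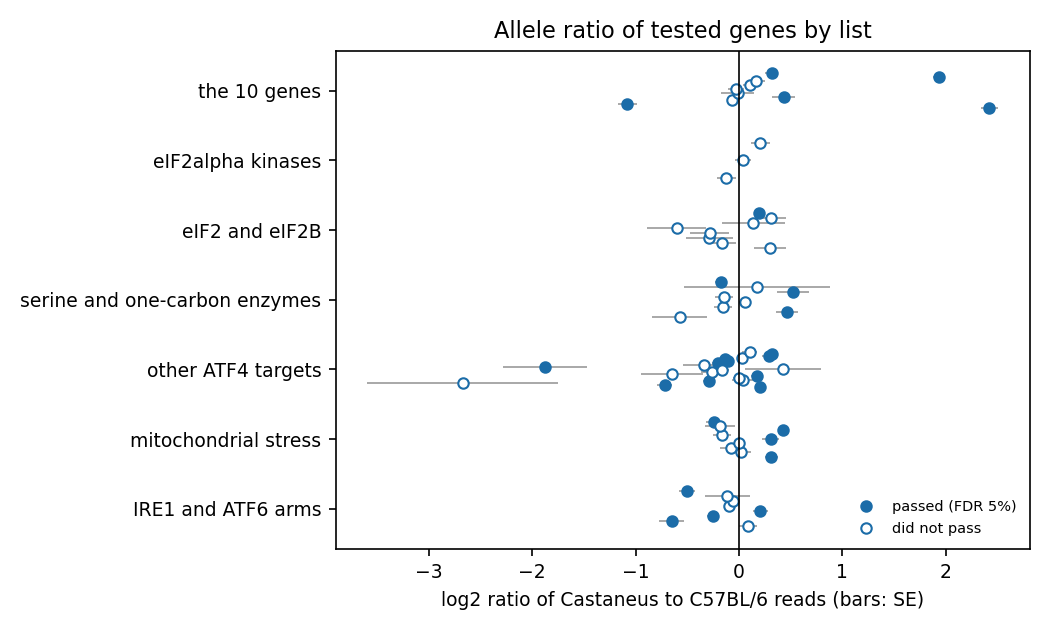
Each circle is the fitted log2 ratio of Castaneus to C57BL/6 reads of a tested gene, with its SE, for the 10 genes and the 6 pathway lists, filled where the gene passed at an FDR of 5%. Asns (2.42) and Sesn2 (1.94) lie furthest to the right of all genes shown. Nupr1, among the other ATF4 targets, lies far to the left (-1.87), and most others lie within 1 log2 unit of equal alleles.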

How the data were processed

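Per the labels' protocols, total RNA was depleted of ribosomal RNA and made into stranded libraries. STAR 2.7.1a, featureCounts and mm10 are named in the submitters' processing notes, while the assignment of reads to alleles is not described in the sources used here. The authors deposited 1 table of whole-number read counts per gene and allele and 1 table of RPKM per gene over both alleles, per the file headers. The 10 genes, the pathway and marker lists and the tests were chosen with earlier results of these data known.

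From the counts, Castaneus was compared with C57BL/6 by edgeR 4.0.16's quasi-likelihood test in R 4.3.3. Replicate number was a block term, because each library holds both alleles. Autosomal genes with a mean of at least 20 allelic reads and 1 RPKM entered (10268), with the autosomal total per allele as library size and Benjamini-Hochberg adjustment over all of them. SE is the log2 ratio divided by the root of F. Shares are Castaneus reads over all allelic reads. Levels are the deposited RPKM values, with 0.1 added before logarithms. Itgam has 2 rows and was left out. Named from each pathway list were the 2 highest and 2 lowest in RPKM and up to 3 called genes per direction with the lowest adjusted p. Neighbouring genes and the allele ratio of Nupr1 were picked after their values were seen. The genes nearest to Atf4 are those with the smallest root mean square difference. The p-values measure the spread of the allele ratio between these 4 samples, with each gene's variance drawn toward that of other genes. The test was tried on simulated data. Alternatives were DESeq2 1.42.0, TMM factors, no block, other filters, other pseudocounts and leaving out each replicate.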

Additional observations from a re-analysis of the deposited data

Results flagged for a closer look

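None of the 10 genes had a library far from the other 3 by Dixon's criterion. Among the 132 sets of 4 values tested over the 10 genes and the pathway genes, 6 had one, and chance gives about 1 in 20. The Castaneus share of Mthfd2 was 46.9% in replicate 2, beside 51.5% to 52.0% in the others. That of Slc38a2 was 45.7% in replicate 1, beside 48.2% to 48.6%. That of Oma1 was 39.3% in replicate 2, beside 47.9% to 49.6%. The asparaginyl-tRNA synthetase gene Nars had a share of 76.6% in replicate 2, beside 47.6% to 51.8%, and a level of 56.1 RPKM in replicate 3, beside 62.7 to 63.8. Gars, the glycyl-tRNA synthetase gene, had 86.2 RPKM in replicate 2, beside 77.5 to 78.8.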

How the results depend on the processing

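When the allele results of the 10 genes were recomputed under 9 alternatives, 77 values kept direction and side of the threshold, 4 lost the call, 2 gained one and 7, none of them called, changed sign. The log2 ratio of Ddit3, -0.01, became 0.0377 with TMM factors and 0.0319 with DESeq2, and ran from -0.105 to 0.0971 when 1 replicate was left out, above 0 without replicate 4. That of Phgdh, -0.03, became 0.0216 with TMM factors and 0.0157 with DESeq2, and ran from -0.108 to 0.0157 when 1 replicate was left out, above 0 without replicate 1 (0.0157) and without replicate 3 (0.000284). Without the replicate block, which pairs the alleles of a library, 2 rather than 4 of the 10 passed toward Castaneus, since Trib3 (adjusted p = 0.0505) and Chac1 (adjusted p = 0.155) were lost in edgeR. Over all autosomal genes, 962 rather than 1278 then passed toward Castaneus and 1138 rather than 1605 toward C57BL/6. DESeq2 called 1930 and 1883, and leaving out 1 replicate gave 913 to 1338 and 1041 to 1720. TMM factors moved the median log2 ratio of all genes by 0.05. The median level of the 10 genes lay 2.46 above that of all genes of at least 1 RPKM on the log2(RPKM + 0.1) scale, and 2.31 with a pseudocount of 1, 3.57 against genes of at least 0.1 RPKM and 8.55 against all genes. Their median coefficient of variation of 8.58% ran from 5.89% to 10.5% when 1 replicate was left out. With 4 libraries, 1 condition and 1 direction of the cross, small ratios such as that of Ddit3 (SE 0.16) could not be resolved. With the stricter element TGATGCAA, 2 of the 10 genes (Atf3 and Chac1) held a match, beside 0.918% of all genes in the promoter table.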
